A study of Homo sapiens with 10 samples.

Results

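The genes described here encode enzymes of heme biosynthesis and a mitochondrial carrier that feeds the pathway: ALAS1, ALAS2, ALAD, UROS, UROD, CPOX, PPOX, FECH and SLC25A38. They were chosen by name from the pathway, and all 9 were found among the 20535 genes listed in every library. RNA-seq was performed on K562 cells, an erythroleukemia line that transcribes embryonic and fetal globin genes, after perturbation of HS2, an enhancer of the β-globin cluster. There were 10 libraries in 5 groups of 2. By the paper's methods, HS2-targeted cells carried a doxycycline-inducible dCas9 fusion and an sgRNA, both delivered by lentivirus and sorted by fluorescent reporters. All 10 libraries are listed with 72 h of doxycycline, while the sgGal4 labels name no fusion. The control libraries are labelled sgGal4, an sgRNA without a target, although the paper describes nontransduced control cells for the RNA-seq comparison, and the labels were followed. The other 4 groups carried a pool of 4 HS2 sgRNAs. K stands for dCas9-KRAB alone and L for dCas9-LSD1 alone, while enCRISPRi-LK joins dCas9-LSD1 with an MCP-KRAB fusion recruited by the sgRNA and enCRISPRi-KL joins dCas9-KRAB with MCP-LSD1. KRAB is a repressor domain and LSD1 a histone demethylase.

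Heme is built from glycine and succinyl-CoA in a chain that starts in the mitochondrion, continues in the cytosol and ends in the mitochondrion, where iron is inserted into protoporphyrin. The first step, catalyzed by an aminolevulinate synthase, sets the rate of the chain, and red cell precursors use the erythroid enzyme ALAS2 for it while other cells rely on ALAS1. In erythroid cells most heme is bound by globin, so heme and globin are made side by side. Values are given in TPM, which corrects for transcript length, so levels of different genes within a library can be compared. Between libraries TPM is a share, which also moves with the most abundant transcripts.

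To check the labels, the effector genes were read first. KDM1A, the gene of LSD1, was at 105 and 84.2 TPM in the libraries labelled L but between 25.2 and 33.5 TPM in the other 8, including those labelled LK and KL. ZNF10, a gene that carries a KRAB domain in common use, was at 128 and 136 TPM in the libraries labelled L, 36.8 and 31.5 TPM in the LK pair, 365 and 360 TPM in the KL pair, and only 1.18 and 3.80 TPM in those labelled K, beside 0.97 and 1.89 TPM with sgGal4. The libraries labelled L thus had both effector genes raised, those labelled LK and KL only ZNF10, and those labelled K neither to a similar degree. These levels did not follow the named constructs in every group, so the text speaks of libraries labelled with a construct (the K pair being the 2 labelled K), and any direction between effectors rests on those labels. The mitochondrially encoded genes took 53.6% of the listed TPM in sgGal4 replicate 1 and between 39.9% and 46.6% in the other 9 libraries.

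UROD was the most abundant member in every library, followed at a distance, by the mean over libraries, by FECH and ALAS2. UROD alone made up between 45.6% and 57.2% of the summed TPM of the 9 genes. The sum itself was 423 ± 47.2 TPM with sgGal4 (SD, n = 2), 452 ± 29.6 TPM in the K pair, 491 ± 34.4 TPM in the L pair, 382 ± 2.41 TPM in the LK pair, and 439 ± 2.43 TPM in the KL pair. Each member was above 0 in every library and passed the filter on low values, a mean of at least 1 TPM, which left 10127 genes for testing. Differences were tested with limma on log2(TPM + 1) with Benjamini-Hochberg adjustment over those genes, and an adjusted p under 0.05 was called. The labels do not say that the libraries of a group came from separate cultures, so p-values measure the spread between these libraries, which may be technical. The paper counts 2 experiments for these data.

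**Figure D1:**
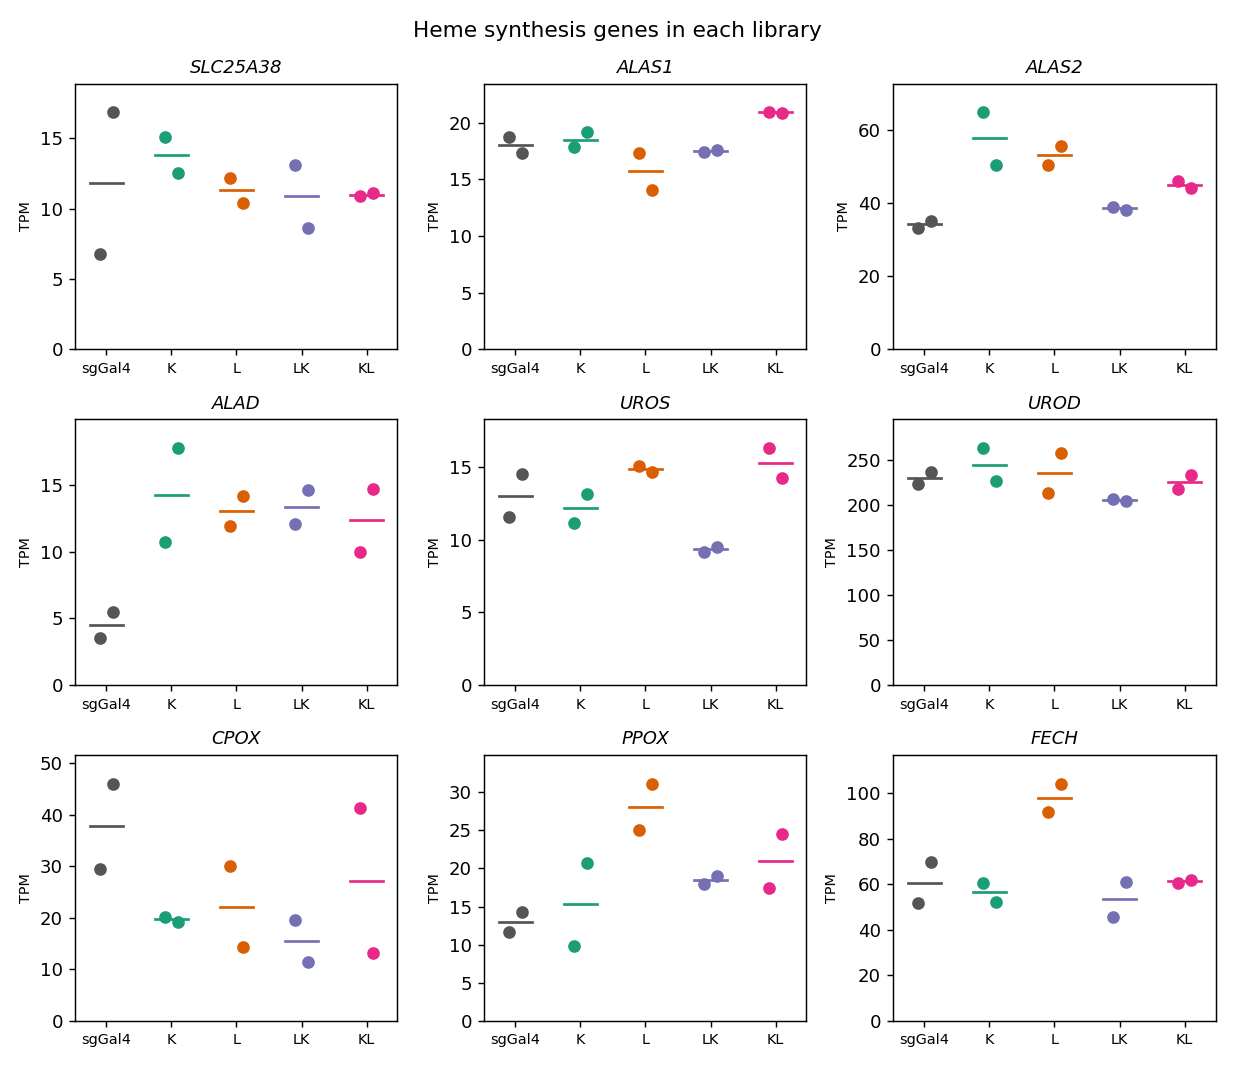
TPM (vertical axes, each from 0) of the 9 heme synthesis genes in every library, with a point for each library and a line at the mean of each group of 2. ALAD and ALAS2 were higher in all 8 HS2-targeted libraries than in both sgGal4 libraries (for ALAS2 not once mitochondrial genes were removed), whereas the sgGal4 pair enclosed all other libraries for SLC25A38.

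The first step was examined in its erythroid and its general enzyme. ALAS2 lies on the minus strand of chromosome X, from 55035488 to 55057410 in hg19, with 11 exons. It was at 33.3 and 35.1 TPM with sgGal4, 64.9 and 50.5 TPM in the K pair, 50.5 and 55.7 TPM in the L pair, 39.1 and 38.2 TPM in the LK pair, and 46.0 and 44.2 TPM in the KL pair. All 8 HS2-targeted libraries were thus above both sgGal4 libraries, and the 4 libraries labelled LK or KL were below the 4 labelled K or L. The separation from sgGal4 was lost when mitochondrially encoded genes were removed and the libraries rescaled, where the LK difference was 0.05 on the log2 scale in place of 0.17. The log2 fold change of ALAS2 against sgGal4 was 0.73 (K, standard error 0.203, adjusted p = 0.0921), 0.62 (L, adjusted p = 0.197), 0.17 (LK, adjusted p = 0.767) and 0.39 (KL, adjusted p = 0.404), and none of these passed the limma test. The mean of the 4 HS2-targeted groups differed from sgGal4 by 0.48 on the log2 scale (95% interval 0.13 to 0.82, adjusted p = 0.134). The libraries labelled LK or KL, by their labels dual effectors, differed from those labelled K or L by -0.39 (95% interval -0.70 to -0.09, adjusted p = 0.543). In this order of group levels, K, L, KL, LK and sgGal4, K and L overlapped and the other neighbors did not.

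ALAS1, the general enzyme on chromosome 3, stayed in a narrow range. It was at 18.7 and 17.4 TPM with sgGal4 and between 14.1 and 20.9 TPM in the HS2-targeted libraries, where the pair labelled KL was highest with 20.9 and 20.9 TPM. The mean of the 4 HS2-targeted groups differed from sgGal4 by 0.0009 on the log2 scale, with a 95% interval from -0.43 to 0.43. ALAS2 exceeded ALAS1 in every library, by 1.78-fold and 2.02-fold with sgGal4 and by between 2.12-fold and 3.96-fold in the other 8 libraries. The highest ratios, from 2.63 to 3.96, were those of the 4 libraries labelled K or L. SLC25A38, the carrier that brings glycine into the mitochondrion, was at 6.75 and 16.9 TPM with sgGal4, a spread that enclosed all 8 other libraries (8.60 to 15.1 TPM).

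ALAD, which condenses aminolevulinate to porphobilinogen in the cytosol, was the member with the clearest difference. The gene lies on the minus strand of chromosome 9 from 116148592 to 116163570 in hg19 and has 12 exons. Its level was 3.54 and 5.51 TPM with sgGal4, 10.8 and 17.8 TPM in the K pair, 11.9 and 14.2 TPM in the L pair, 12.1 and 14.7 TPM in the LK pair, and 10.0 and 14.7 TPM in the KL pair. The sgGal4 libraries were the lowest, and the 4 HS2-targeted groups overlapped one another. The mean of these 4 groups was higher than sgGal4 by 1.37 on the log2 scale (standard error 0.276, 95% interval 0.78 to 1.96, adjusted p = 0.0150 in limma). Each group taken alone missed the threshold in this fit, with 1.45 (K, adjusted p = 0.0539), 1.37 (L, adjusted p = 0.0932), 1.40 (LK, adjusted p = 0.0589) and 1.28 (KL, adjusted p = 0.0909). These comparisons share the sgGal4 libraries. With a filter at a mean of 10 TPM or with replicate number as a block, K and LK passed (adjusted p between 0.0366 and 0.0429), and replicate 2 was above replicate 1 for ALAD in all 5 groups. ALAD reached a mean of 10 TPM only through the HS2-targeted libraries (mean 13.3 TPM, beside 4.5 TPM with sgGal4). Calls under that filter are therefore not read as support. Without sgGal4 replicate 1, the library with the largest mitochondrial share, the difference was 1.11 and no longer passed (adjusted p = 0.204), and it was not called either when every gene with a value was tested (adjusted p = 0.0630). Libraries labelled LK or KL differed from those labelled K or L by -0.07 for ALAD, with a 95% interval from -0.60 to 0.46.

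The promoters of ALAS2 and ALAD are shown because these were the members whose HS2-targeted libraries did not overlap sgGal4. Each is the run of 250 bases before the RefSeq start (GRCh38.p14, a later build than the hg19 of the expression values), read 5′ to 3′ on the gene's strand. Capitals mark GATAA, the core bound by GATA factors, CACCC, bound by KLF1, and TGACTCA, bound by NFE2 and AP-1, on either strand. The ALAS2 window is chrX:55030978-55031227 and the ALAD window, at the upstream of 2 starts, is chr9:113401285-113401534, both on the minus strand.
ALAS2: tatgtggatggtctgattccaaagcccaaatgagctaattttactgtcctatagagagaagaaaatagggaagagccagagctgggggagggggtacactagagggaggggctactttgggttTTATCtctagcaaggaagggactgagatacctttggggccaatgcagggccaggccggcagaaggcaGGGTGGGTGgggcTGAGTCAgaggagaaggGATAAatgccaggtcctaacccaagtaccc
ALAD: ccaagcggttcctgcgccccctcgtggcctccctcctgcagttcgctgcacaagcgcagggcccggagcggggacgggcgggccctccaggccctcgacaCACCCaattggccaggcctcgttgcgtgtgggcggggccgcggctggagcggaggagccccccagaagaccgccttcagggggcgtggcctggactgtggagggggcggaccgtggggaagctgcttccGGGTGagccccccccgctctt

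The ALAS2 window held GATAA 2 times, CACCC 2 times in overlapping copies and TGACTCA 1 time, while the ALAD window held CACCC 2 times and neither of the other motifs. RefSeq promoters were matched for 8 of the 9 members, with 10 windows in all, and UROS had no entry. GATAA was found in 3 members (ALAS2, CPOX and PPOX), CACCC in 5 (ALAS1, ALAS2, ALAD, PPOX and SLC25A38) and TGACTCA only in ALAS2. By window this was 3, 6 and 1 of 10. Of 35116 promoter windows of the same length, 20.4% held GATAA, 54.7% CACCC and 4.20% TGACTCA. These matches describe the letters of the windows, and binding was not measured.

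The later cytosolic enzymes had smaller mean differences. UROD, which removes carboxyl groups from uroporphyrinogen, was at 223 and 237 TPM with sgGal4 and between 204 and 263 TPM in the other 8 libraries, with the LK pair (206 and 204 TPM) below both sgGal4 libraries. The LK difference was -0.16 on the log2 scale (adjusted p = 0.672). Under the 3 other scalings this LK difference lay between -0.31 and -0.20 and was not called by limma (adjusted p between 0.245 and 0.516). The difference of the mean of the 4 groups was -0.02 on the log2 scale with a 95% interval from -0.27 to 0.23, the narrowest interval among the members. Under the same 3 scalings the mean difference lay between -0.12 and -0.06. UROS, which closes the ring of uroporphyrinogen, was at 11.6 and 14.5 TPM with sgGal4, 11.2 and 13.2 TPM in the K pair, 15.1 and 14.7 TPM in the L pair, 9.18 and 9.54 TPM in the LK pair, and 16.3 and 14.2 TPM in the KL pair. The pair labelled LK was lowest and lay below both libraries labelled KL. This difference between LK and KL was -0.65 (standard error 0.284), which did not pass after adjustment over all genes (adjusted p = 0.469).

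The last steps take place in the mitochondrion. CPOX, the oxidase that makes protoporphyrinogen, was at 29.5 and 46.0 TPM with sgGal4, 20.2 and 19.2 TPM in the K pair, 30.0 and 14.2 TPM in the L pair, 19.6 and 11.4 TPM in the LK pair, and 41.2 and 13.2 TPM in the KL pair. Replicates were far apart in every group except K, and 2 HS2-targeted libraries reached the sgGal4 range. The mean difference from sgGal4 was -0.89 (95% interval -1.67 to -0.11, adjusted p = 0.227), and between -1.20 and -0.58 when a library was left out (adjusted p between 0.0729 and 0.657). PPOX, which oxidizes protoporphyrinogen, was at 11.6 and 14.3 TPM with sgGal4, 9.79 and 20.8 TPM in the K pair, 25.1 and 31.1 TPM in the L pair, 17.9 and 19.0 TPM in the LK pair, and 17.4 and 24.5 TPM in the KL pair. The pairs labelled L, LK and KL lay above sgGal4, and the pair labelled K enclosed it. The difference was 1.06 for L (adjusted p = 0.177) and 0.58 for the mean of the 4 groups (adjusted p = 0.277).

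FECH, the ferrochelatase that inserts iron, was at 51.8 and 69.8 TPM with sgGal4, 60.7 and 52.4 TPM in the K pair, 92.0 and 104 TPM in the L pair, 45.8 and 60.9 TPM in the LK pair, and 60.8 and 62.0 TPM in the KL pair. Only the pair labelled L stood apart, above all 8 other libraries. Its difference from sgGal4 was 0.69 (95% interval 0.24 to 1.15), and this did not pass the limma test (adjusted p = 0.163). FECH has the longest transcript of the members, 7689 bases over 11 exons on chromosome 18. Over all 9 members, 25 of the 36 pairs of neighbors in the order of group means overlapped between their libraries. No matching share was computed over all genes, so nothing particular to the members is read from this count.

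**Figure D2:**
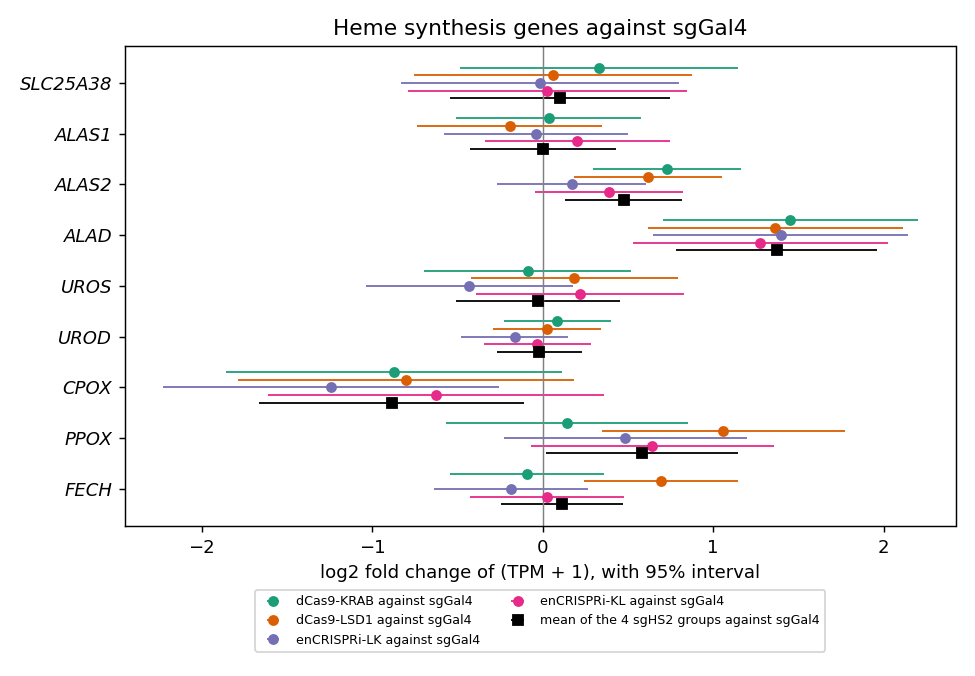
Log2 fold change of TPM + 1 (horizontal axis) for each heme synthesis gene in the 4 comparisons with sgGal4 (circles) and for the mean of the 4 HS2-targeted groups (squares), with bars for the 95% interval of limma before adjustment over genes. ALAD lies to the right of 0 in all 5 comparisons, with 1.37 for the mean, and UROD lies close to 0.

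The members were then counted in each comparison beside all 10127 genes. In K against sgGal4, 0 of 9 members were called by limma, beside 1.62% of all genes, and 2 of 9 had an unadjusted p under 0.05, beside 15.6% of all genes. In L against sgGal4, 0 members were called (0.869% of all genes) and 4 had an unadjusted p under 0.05 (12.8%). In LK against sgGal4, 0 were called (2.00%) and 2 were under 0.05 unadjusted (14.2%), and in KL against sgGal4, 0 were called (1.36%) and 1 was under 0.05 unadjusted (14.7%). For the mean of the 4 HS2-targeted groups, ALAD was the 1 member called (3.26%) and 4 were under 0.05 unadjusted (17.1%). The contrast of LK and KL with K and L called 0 members (0.0889%, with 2 members and 7.45% of genes under 0.05 unadjusted). The contrast of LK with KL also called 0 (0.385%, with 1 member and 9.84% of genes under 0.05 unadjusted). The moderated F test over the 5 groups called 0 members (1.82%), and 4 were under 0.05 unadjusted (15.8%). No test of the list against all genes was run, and nothing particular to the list is read from these shares.

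The median log2 fold change of the 9 members was set beside that of all genes, without a test of the difference. It was 0.09 beside 0.06 for K, 0.18 beside 0.005 for L, -0.04 beside 0.03 for LK, 0.20 beside 0.05 for KL and 0.10 beside 0.03 for the mean of the 4 groups. For LK and KL against K and L it was -0.15 beside 0.007, and for LK against KL -0.21 beside -0.007, with 8 of 9 members negative in each, beside 48.7% and 50.8% of all genes. In L against sgGal4, 2 of 9 members were negative, beside 49.3% of all genes. For LK and KL against K and L, where 0.0889% of all genes were called and 7.45% were under 0.05 unadjusted, some other lists leaned the same way, with 10 of 10 erythroid cell markers (median -0.59), 9 of 11 further erythroid genes (median -0.38, 0 called by limma, 5 under 0.05 unadjusted) and 11 of 16 partner genes (median -0.27, 0 called by limma, 6 under 0.05 unadjusted) negative. The 4 cell markers called there were the globins HBE1, HBG1, HBG2 and HBZ, so that list is not a readout apart from globin, and the HBZ call held in 3 of 10 fits that left out a library. Genes of iron-sulfur clusters (7 of 12 negative, median -0.02) and of substrate supply (5 of 9, median -0.009) did not lean, and 5 of 8 regulators were negative (median -0.16). For LK against KL, 4 of 10 erythroid cell markers and 8 of 9 substrate genes were negative. The part of these lists in the members' shift was not tested. By the ranges of the libraries, 2 of 9 members (ALAS2 and ALAD) had all 8 HS2-targeted libraries above both sgGal4 libraries, as did 6.53% of all genes, and 0 members had all 8 below, as did 5.29% of all genes. When mitochondrially encoded genes were removed and the libraries rescaled, an alternative added after the values were seen, ALAD alone remained above. For LK and KL against K and L, ALAS2 was the 1 member with all 4 libraries below (1.78% of all genes), and 0 members had all 4 above (1.55%).

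Heme synthesis genes were next set against globin repression. The β-like globins HBE1, HBG1, HBG2, HBD and HBB summed to 2436 ± 32.4 TPM with sgGal4 (SD, n = 2), 1543 ± 42.1 TPM in the K pair, 1667 ± 56.5 TPM in the L pair, 990 ± 35.1 TPM in the LK pair, and 667 ± 26.8 TPM in the KL pair. HBE1, the embryonic gene, was lower in the mean of the 4 groups by -1.29 on the log2 scale (adjusted p = 1.05e-05), and HBG2, a fetal gene, by -0.93 (adjusted p = 0.00117). The summed heme synthesis genes did not follow this order. Per 100 TPM of β-like globin there were 15.8 and 18.9 TPM of the 9 genes with sgGal4, between 27.3 and 31.7 TPM in the libraries labelled K or L, 37.5 and 39.7 TPM in those labelled LK, and 64.2 and 67.5 TPM in those labelled KL. The libraries labelled KL, with the lowest globin sum, had 439 TPM of the 9 genes, within the range of the sgGal4 libraries (389 to 456 TPM). No test was run on the sums.

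**Figure D3:**
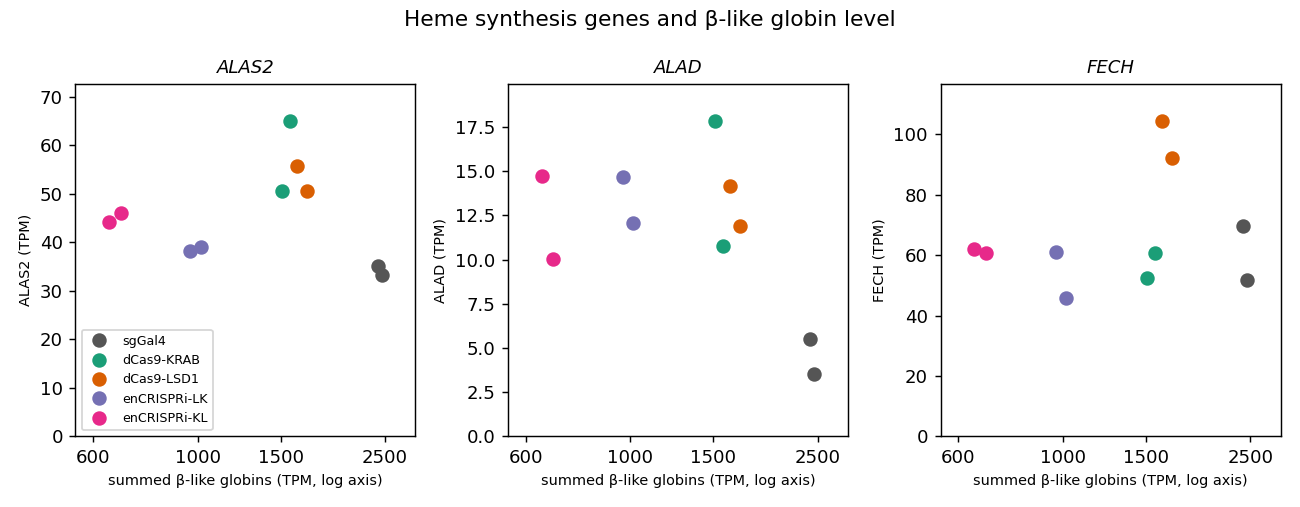
TPM of ALAS2, ALAD and FECH (vertical axes, from 0) in each library against the summed TPM of the 5 β-like globins in the same library (horizontal log axis). The sgGal4 libraries lie at the right with the lowest ALAS2 and ALAD, the libraries labelled KL lie at the left, and FECH is highest in the libraries labelled L.

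Over the 10 libraries, which are 2 of each group and so not fully independent, the relation of each member to the log2 globin sum was computed, 9 relations in all. Pearson's r ranged from -0.58 for ALAD (permutation p = 0.0740, Spearman's rho = -0.59, permutation p = 0.0809) to 0.38 for CPOX (permutation p = 0.277, rho = 0.50, permutation p = 0.145). Among all genes tested, 13.3% had a larger absolute r than ALAD. Without the pair labelled KL, the libraries farthest from the median globin sum on the log scale, r was -0.75 for ALAD, 0.78 for CPOX and 0.67 for UROS (0.007 over the 10 libraries), while for ALAS1 it went from -0.50 to 0.06 (n = 8). Within the 8 HS2-targeted libraries alone, r for ALAD was 0.14, and the negative relation was thus not seen without the sgGal4 pair. For CPOX and UROS, r within these 8 libraries was slightly negative, so their positive values above were not seen there either. ALAS2 had r = -0.10 over the 10 libraries (permutation p = 0.773, rho = -0.15, permutation p = 0.688), but r = 0.64 within the 8 HS2-targeted libraries, where the libraries labelled K or L had more of both.

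The α-like globins gave another order. HBZ, the embryonic α-like gene, was at 1034 and 940 TPM with sgGal4, 1345 and 1340 TPM in the K pair, 2712 and 1909 TPM in the L pair, 800 and 829 TPM in the LK pair, and 1457 and 1659 TPM in the KL pair. It was the only gene of that list called against sgGal4, with 1.21 for L (adjusted p = 0.00115), 0.66 for KL (adjusted p = 0.0340) and 0.51 for the mean of the 4 groups (adjusted p = 0.0252). The call for L held under each of 3 other scalings, while those for KL and for the mean were lost under all 3 (adjusted p between 0.0894 and 0.252). There the difference went as low as 0.41 for KL and 0.24 for the mean, and under quantile normalization HBZ was called lower in LK (-0.60, adjusted p = 0.0412). The libraries labelled L thus had the highest levels of HBZ, FECH and PPOX, although the members did not pass. HBA1, an adult gene, lay between 50.8 and 136 TPM, HBQ1 between 24.7 and 47.0 TPM and HBA2, the other adult gene, between 0 and 7.92 TPM, and HBM was listed at 0 in every library. Among the β-like genes, HBD, a minor adult gene, was called in K against sgGal4 (1.04, adjusted p = 0.0492, lost when any library was left out), HBG1, the other fetal gene, in KL (-1.13, adjusted p = 0.00994), and HBB, the main adult gene, was listed between 0 and 6.36 TPM.

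Other genes of the pathway were taken from lists of partners. Of 17 partner genes, among them transporters, chaperones and genes of heme breakdown, 16 were tested and 1 was called against sgGal4, in LK, where 2.00% of all genes were called. This was SLC25A37, the mitochondrial iron importer, at 98.8 and 107 TPM with sgGal4 and 58.5 and 62.4 TPM in the libraries labelled LK, with -0.76 on the log2 scale (adjusted p = 0.0411). It was lower in both LK libraries than in the other 8, but the call was lost when any library was left out (adjusted p between 0.0519 and 0.263). BLVRB, a biliverdin reductase and the most abundant gene of the list, was at 252 and 254 TPM with sgGal4 and between 220 and 378 TPM elsewhere. HMOX1, the inducible heme oxygenase, was listed at 0 in every library. For SLC25A37, all 8 HS2-targeted libraries (58.5 to 92.6 TPM) were below both sgGal4 libraries, as for 5.29% of all genes. The same held for CLPX, at 15.5 to 34.5 TPM beside 37.4 and 40.5 TPM with sgGal4. FAM210B was also below, at 23.95 to 40.43 TPM beside 44.91 and 48.38 TPM. No partner had all 8 above.

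Among 10 regulators of heme synthesis and heme sensors, 8 were tested, and against sgGal4 1 was called higher and 0 lower, in comparisons that called 1.62% (K), 0.869% (L) and 3.26% (mean of the 4 groups) of all genes. KLF1, an erythroid transcription factor, was at 20.3 and 24.1 TPM with sgGal4 and between 35.9 and 52.4 TPM in the 8 HS2-targeted libraries, with the pair labelled L highest at 52.4 and 49.4 TPM. All 8 HS2-targeted libraries were thus above both sgGal4 libraries, as for 6.53% of all genes. ALAD and ALAS2 were among these, ALAS2 not once mitochondrial genes were removed. The difference was called for K (0.95, adjusted p = 0.0394), for L (1.17, adjusted p = 0.0190) and for the mean of the 4 groups (0.92, adjusted p = 0.00861). Without sgGal4 replicate 1 the mean difference was 0.80 and did not pass (adjusted p = 0.113), and the call for K held in 1 of 10 fits that left out a library. NFE2, an erythroid factor and by the mean over libraries the most abundant gene of this list, stayed between 101 and 132 TPM.

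Genes for the supply of clusters and substrates were counted in the same way. Of 12 genes of iron-sulfur cluster assembly, which provides the cluster of FECH, 0 were called by limma in any comparison, and 2 had an unadjusted p under 0.05 for the mean of the 4 groups. HSPA9, a mitochondrial chaperone and by the mean over libraries the most abundant gene of that list, was between 240 and 321 TPM. Of 9 genes that supply glycine and succinyl-CoA, 0 were called and 2 had an unadjusted p under 0.05 for the same mean, with SHMT2, a mitochondrial glycine-forming enzyme, the most abundant by the mean over libraries, at 83.8 to 138 TPM. Over all genes 3.26% were called and 17.1% were under 0.05 unadjusted for this mean. The median difference of the mean of the 4 groups was 0.11 for the cluster genes and -0.02 for the substrate genes, beside 0.03 for all genes.

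Erythroid identity was read from 15 further genes, of which 11 were tested. CA1, a carbonic anhydrase of red cells, was the only call against sgGal4, at 0.92 and 0 TPM with sgGal4 and 5.21 and 9.91 TPM in the libraries labelled K (adjusted p = 0.0492), where 1.62% of all genes were called. CA1 was at 6.92 and 6.32 TPM in the L pair, with a similar difference (2.46 beside 2.57 on the log2 scale) that missed the threshold (adjusted p = 0.0805). Under the alternatives to the processing, these differences went up to 4.51 for K and 4.39 for L, so their size depends on those choices. CA1 passed the filter at a mean of 1 TPM only because of the libraries labelled K or L. Its group mean stayed under that filter with sgGal4 (0.46 TPM) and for KL (0.32 TPM), and it was 1.44 TPM for LK. The gene was thus kept by the groups where it was high, and its call for K is not read as support. The call for K was lost under each of the 3 other scalings (adjusted p between 0.0589 and 0.0650) and held in 2 of 10 fits that left out a library. The 15 genes summed to 892 and 1080 TPM with sgGal4 and to between 840 and 1082 TPM in the other libraries, with GYPC, a glycophorin, highest by the mean over libraries, at 231 to 322 TPM. The libraries thus carried erythroid transcripts throughout, though not of every gene listed. Of the 15, KEL was at 0 in every library, and AHSP, CA2 and EPB42 reached at most 0.91, 1.34 and 1.16 TPM. The megakaryocyte markers GP9, PF4 and VWF and the granulocyte or monocyte markers MPO, ELANE and CSF1R were also at 0 in every library. The 11 erythroid cell markers summed to between 2101 and 4859 TPM, with HBZ highest by the mean over libraries and HBE1 highest in both sgGal4 libraries. The megakaryocyte markers summed to at most 6.31 TPM, with ITGA2B highest by the mean, and the granulocyte or monocyte markers to at most 9.38 TPM, with LYZ highest by the mean. Of 5 lymphoid markers, CD3E, MS4A1 and CD79A were at 0 throughout. The sum of the 5, led by CD3D, was 26.1 and 33.6 TPM with sgGal4 and between 1.65 and 21.3 TPM in the other 8 libraries, the reverse of ALAD, and the part of this in the result was not tested.

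A value of 0 in these libraries is not proof that a gene is silent. Of 741 listed genes placed on chromosome X, 405 (54.7%) were at 0 in every library, against 26.0% of 17170 on the autosomes. Those at 0 included GATA1 and the housekeeping genes PGK1, UBA1, RPL10 and RPL36A, whereas RPS4X (347 to 450 TPM), HPRT1 (19.4 to 29.2 TPM) and RPL39 (0.49 to 6.19 TPM) had values. ALAS2 was among the X-linked genes with values in every library, as was the heme chaperone PGRMC1 (10.1 to 18.8 TPM).

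The genes most like ALAD, the member with the smallest p of the F test, were sought among 6109 genes whose mean reached 10 TPM. The 5 highest Pearson correlations over the 10 libraries were those of C14orf2, a small protein of the ATP synthase (r = 0.96), the ribosomal protein genes RPL36 (0.95) and RPL35A (0.93), HMGN2, a nucleosome-binding protein (0.94), and COX7C, a cytochrome oxidase subunit (0.93). Chosen for their likeness over the same libraries, they share the split from sgGal4 by that choice, and no test of it is given. HMGN2, for example, was at 291 and 367 TPM with sgGal4 and between 509 and 606 TPM in the HS2-targeted libraries, a difference of 0.72 on the log2 scale. The changes of these genes were smaller than that of ALAD, between 0.48 and 0.72 beside 1.37.

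Each group holds 2 libraries, counted by the paper as 2 experiments though the labels do not state separate cultures, and all comparisons with sgGal4 rest on the same pair, of which replicate 1 had the highest mitochondrial share. The higher ALAD in HS2-targeted libraries therefore depends on that pair, and an effect of HS2 cannot be told apart from other differences between the sgGal4 libraries and the rest. Intervals for ALAD, CPOX, PPOX and SLC25A38 are wide, and an absence of a call is not evidence of equal levels. TPM is a share of each library, so a large change in abundant transcripts moves all other values. Transcript levels alone were analysed here, and enzyme activity, heme and iron were not.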

How the data were processed

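The authors aligned reads to hg19 with STAR (version 2.5.2b in the submitters' processing notes) and deposited 1 RSEM value in TPM per gene and library. TPM keeps no read number, so depth is unknown and no interval rests on counts. The paper's methods name another library kit than the labels, and DESeq2, which needs counts and was not used here. From the deposited TPM, log2(TPM + 1) was fitted in limma (version 3.58.1, R 4.3.3), for the 10127 genes whose mean reached 1 TPM, with all 10 libraries and 5 groups in 1 model (5 residual degrees of freedom), moderation with a trend, and Benjamini-Hochberg adjustment over these genes. The step was tested on simulated data. Correlations used 100000 two-sided permutations of libraries (Python 3.11.15, numpy 2.4.6, pandas 2.3.3), and no p adjusted over the 9 members is given. Plots were drawn with matplotlib 3.10.9.

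Named genes were the members, the globins, genes of the lists that were called against sgGal4, the most abundant gene of each list, and the 5 genes most like the member with the smallest F test p. HMOX1 and the genes at 0 were added for their role in the pathway or the files. CLPX and FAM210B were added for their ranges beside sgGal4. Members and lists were chosen with earlier results of these data known. Positions are from GENCODE 44 on GRCh37, promoters from RefSeq (GRCh38.p14). Alternatives were another pseudocount, no filter or a filter at a mean of 10 TPM, 3 other scalings, no trend, only the groups compared, a replicate block, and leaving out each library.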

Additional observations from a re-analysis of the deposited data

Results flagged for a closer look

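For UROS, 2 groups lay on opposite sides of sgGal4, though neither difference passed (adjusted p = 0.848 for L and 0.541 for LK in limma). Both libraries labelled L (15.1 and 14.7 TPM) were above both sgGal4 libraries (11.6 and 14.5 TPM), the lower of them barely, and both labelled LK (9.18 and 9.54 TPM) were below. The effects differed by 0.62 on the log2 scale, and the difference between these groups was not tested.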

How the results depend on the processing

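ALAD was called in the mean of the 4 HS2-targeted groups under 7 of 8 alternatives other than leaving out a library, with log2 differences from 1.29 to 1.54. The filter at 10 TPM is among these 7, and ALAD passed that filter only through the HS2-targeted libraries. Without a filter, which raised the genes tested to 14466, 0 members were called there. Leaving out 1 library in turn gave between 0 and 1 member called, the 0 without sgGal4 replicate 1, and log2 differences from 1.11 to 1.63. In K and in LK against sgGal4, 1 member, ALAD, was called with a filter at 10 TPM or with the replicate block, in place of 0. The calls under the filter at 10 TPM are not read as support. All other counts of members called, in the remaining comparisons and alternatives, equalled those in the text. With a lone library left in a group, that library is assumed to vary like the other groups. Fitting only the groups compared gives no value for the mean of the 4 groups or the F test. Over all genes, deviations of same-numbered libraries from the group means had correlations between -0.02 and 0.02 over the 10 pairs of groups. These values do not settle the matter for single genes. Replicate 2 was above replicate 1 in all 5 groups for ALAD and PPOX, and no member showed the reverse in all 5. Whether the numbers mark anything shared was not tested. The block moved no other count of members. For members with all 8 HS2-targeted libraries above sgGal4, the count was 1 in place of 2 once mitochondrial genes were removed. The relation to the globin sum changed sign within the 8 HS2-targeted libraries for ALAS2 (r = 0.64), ALAD (0.14), UROS (-0.0301), CPOX (-0.00849) and PPOX (0.0132). Counts of all genes called moved more. They were 51, 37, 61, 83, 185, 4, 20 and 58 without a filter for K, L, LK, KL, the mean, LK and KL against K and L, LK against KL and the F test, in place of 164, 88, 203, 138, 330, 9, 39 and 184, and 14, 22, 15, 75, 99, 4, 17 and 39 without a trend. With only the groups compared they were 59, 25, 57 and 66 for K, L, LK and KL, 15 for LK and KL against K and L and 23 for LK against KL. Leaving out 1 library gave 9 to 230 for K, 16 to 138 for L, 20 to 210 for LK, 45 to 168 for KL, 89 to 272 for the mean, 3 to 15 for LK and KL against K and L, 3 to 39 for LK against KL and 71 to 163 for the F test. L gave 151 with quantile normalization and 140 without mitochondrial genes, and LK and KL against K and L gave 15 with quantile normalization and 5 with a pseudocount of 0.1. Removing mitochondrial genes shifted the median of all genes by -0.11 in K and LK, and the share of higher genes among those called went from 54.3% to 34.0% in K, 58.6% to 37.3% in LK, 46.4% to 32.3% in KL and 54.5% to 35.4% in the mean. It also went to 43.9% in K and 45.3% in LK with quantile normalization, and to 47.4% in LK with median-of-ratios factors. The cause of these differences was not tested.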
